A study of Arabidopsis thaliana with 32 samples.

Results

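Roots of 8 day old Arabidopsis thaliana seedlings of the accession WS, grown on the International Space Station, were compared with roots of the same accession and age grown on the ground. The members are all loci that the authors list for this comparison in their deposited table, 888 loci of 17365 tested; direction is flight over ground. The series holds 32 RNA-seq libraries in 8 groups of 4 replicates, namely Col-0 and WS seedlings at 4 and 8 days, each in flight and on the ground. The comparison described here rests on 8 of those libraries, 4 from flight and 4 from ground roots. The labels give the accession as the only genotype, and although the experiment's name refers to a transgenic expression system, they name no transgene, mutation or chemical agent for these plants. They grew from dormant seed on vertical plates of 0.5x MS medium under the LED light of Veggie growth units. The ground plates stood in a chamber at Kennedy Space Center that replayed the temperature, CO2 and light of the station with a delay of 48 h, so the groups differ in flight and in hardware unit and date together, and these cannot be told apart. Seedlings were fixed in RNAlater and the roots were dissected after return. Each 8 day replicate pooled 2 to 3 roots, against 5 to 8 roots at 4 days.

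In plants, gravity is sensed by sedimenting starch grains in the columella cells of the root cap, and the resulting redistribution of auxin by carrier proteins steers root growth. In orbit that cue is absent, buoyant convection is lost so that gases reach tissues mainly by diffusion, and root direction follows light and touch. Genes of cell wall remodelling, light response, hypoxia, heat shock and oxidative stress are the groups most often described in plants grown in orbit.

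The authors' deposited tables give 1 level per group, in FPKM (fragments mapped to a transcript, scaled by its length and by the total mapped fragments), and list only loci with a q-value of 0.05 or less from Cuffdiff. No value per replicate is used here and the sequencing depth is unknown, so a locus that is not listed has no value and is described as not called. Each log2 fold change is given with ± 1 standard error, which was derived from the deposited test statistic and rests on n = 4 replicates per group. For 504 of the 888 loci (56.8%) that statistic was under 1.96 in size, so these errors are wider than the deposited q-values would imply, and both are given. Unless another table is named, every level, log2 fold change and q-value below is from the authors' deposited table of flight against ground in 8 day WS roots. In whole roots, fewer cells of a type and less RNA per cell cannot be told apart.

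Of the 17365 loci tested, 5.11% were called, with 410 higher in flight (2.36%) and 478 lower (2.75%). Called counts of the gene lists below are to be read beside this 5.11%. A list counts all its annotated genes, tested or not, so its share has a different base. The loci that rose were of low abundance, with a median of 11.8 FPKM on the ground and 20.7 FPKM in flight. The loci that fell were abundant, with medians of 90.0 FPKM on the ground and 60.3 FPKM in flight. Changes were moderate: the median log2 fold change was 0.71 among the loci that rose (interquartile range 0.54 to 0.98, a ratio of 1.63) and −0.53 among those that fell (−0.72 to −0.41, a ratio of 1.44). More than 2-fold, 88 loci rose (21.5% of those that rose) and 55 fell (11.5%). A single annotated gene was given for 815 loci, several genes for 56 and none for 17. Over the 809 genes with a direction of their own, 375 rose and 434 fell, with a median log2 fold change of −0.33 and 46.4% higher. Photosynthesis and shoot markers (0 of 41 called), seed and late embryo genes (0 of 19) and phloem markers (0 of 17) held no called gene. A list without a called gene shows only that no difference between flight and ground was called. Because unlisted genes have no level, whether shoot tissue was absent from the dissected roots could not be checked, while root hair cell wall genes such as EXT12 were present in both groups.

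**Figure D1:**
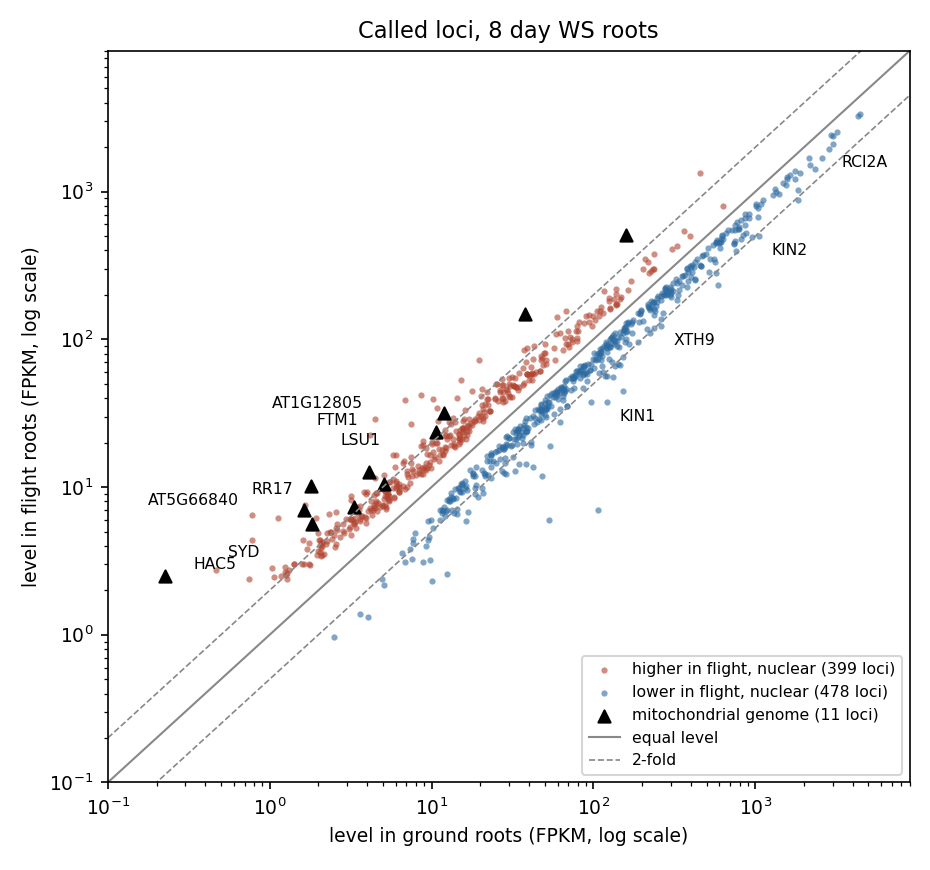
Levels of the 888 called loci in ground roots (x axis, FPKM, log scale) against flight roots (y axis, FPKM, log scale), from the authors' deposited table; each point is 1 locus, red where higher in flight and blue where lower, and triangles are the 11 loci of the mitochondrial genome. Loci that fell lie mostly at high levels (median 90.0 FPKM on the ground) and loci that rose mostly at low levels (median 11.8 FPKM).

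Of 29 genes of the cold and abscisic acid response 4 were called, all lower in flight, with a median log2 fold change of −0.78 against −0.33 over all called genes. KIN1, a small hydrophilic protein induced by cold, drought and abscisic acid, had 121 FPKM in the ground group and 37.6 FPKM in the flight group, a log2 fold change of −1.68 ± 0.76 (Cuffdiff q = 0.00259). Its neighbour and near-copy KIN2 had 1052 FPKM on the ground and 499 FPKM in flight (−1.08 ± 0.23, q = 0.00259). KIN1 and KIN2 stand side by side on chromosome 5 and are similar enough that reads can be split between them, so the change of either one alone is uncertain, although both fell. COR413-PM1, a cold-regulated membrane protein, went from 784 to 562 FPKM (−0.48 ± 0.30, q = 0.0322). The dehydrin ERD14 went from 474 to 374 FPKM (−0.34 ± 0.18, q = 0.00635). Other classic cold genes of the list, 25 in all, were not called.

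The RCI2 proteins are very small hydrophobic membrane proteins annotated as responsive to low temperature and salt. This family was picked out after its values had been seen, so its count supports nothing by itself. Of its 8 annotated genes 4 were called, all lower. RCI2A went from 2865 to 1957 FPKM (−0.55 ± 0.21), RCI2B from 2338 to 1423 FPKM (−0.72 ± 0.19), AT4G30650 from 950 to 490 FPKM (−0.96 ± 0.19) and AT4G30660 from 742 to 452 FPKM (−0.71 ± 0.20), each with q = 0.00259. RCI2A and RCI2B, and likewise AT4G30650 and AT4G30660, are neighbouring paralogs that can share reads.

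The promoters of 4 of these genes are shown because abscisic acid and cold act in Arabidopsis through short promoter elements, the abscisic acid response element (core ACGTG) and the dehydration response element (core CCGAC). Each sequence runs 5′ to 3′ on the gene's strand from 250 bases before to 50 bases from the annotated gene start, from the RefSeq Col-0 reference (TAIR10.1), not from WS. Capitals mark matches to either core on either strand, and a CACGTG holds overlapping matches to the first core on both strands.
KIN1 (chr5:5209467-5209766, + strand): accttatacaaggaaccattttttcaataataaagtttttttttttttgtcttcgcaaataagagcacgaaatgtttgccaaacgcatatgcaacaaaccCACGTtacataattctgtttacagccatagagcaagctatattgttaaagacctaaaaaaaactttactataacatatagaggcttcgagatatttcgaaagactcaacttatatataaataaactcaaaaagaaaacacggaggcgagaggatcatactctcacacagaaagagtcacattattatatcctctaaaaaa
KIN2 (chr5:5211469-5211768, + strand): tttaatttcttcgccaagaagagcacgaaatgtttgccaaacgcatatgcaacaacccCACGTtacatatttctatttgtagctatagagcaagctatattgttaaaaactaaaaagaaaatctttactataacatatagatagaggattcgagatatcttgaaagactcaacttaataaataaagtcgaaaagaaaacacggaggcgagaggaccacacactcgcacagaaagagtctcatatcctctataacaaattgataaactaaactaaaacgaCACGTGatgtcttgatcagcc
AT4G30650 (chr4:14953954-14954253, + strand): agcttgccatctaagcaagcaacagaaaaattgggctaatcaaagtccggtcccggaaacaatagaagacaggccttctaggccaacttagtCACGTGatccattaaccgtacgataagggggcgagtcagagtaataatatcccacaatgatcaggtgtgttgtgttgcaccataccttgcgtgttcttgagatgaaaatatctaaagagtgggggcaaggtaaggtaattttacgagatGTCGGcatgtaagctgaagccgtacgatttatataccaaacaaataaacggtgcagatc
RCI2A (chr3:1756875-1757174, − strand): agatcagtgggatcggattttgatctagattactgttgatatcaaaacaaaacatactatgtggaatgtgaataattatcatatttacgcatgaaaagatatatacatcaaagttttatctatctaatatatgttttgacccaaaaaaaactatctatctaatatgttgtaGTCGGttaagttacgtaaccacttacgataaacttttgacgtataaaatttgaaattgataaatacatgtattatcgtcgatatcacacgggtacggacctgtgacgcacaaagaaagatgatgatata
The first core occurred once in the KIN1 window, 150 bases before the start, and in KIN2 it occurred 192 bases before the start and as an overlapping pair just after it. The AT4G30650 window held an overlapping pair of the first core 158 bases before the start and 1 match to the second core 9 bases before it. RCI2A held 1 match to the second core, 79 bases before the start. Over the 4 called genes of the cold and abscisic acid list the first core was present in 3 and the second in 1, and over the 4 called RCI2 genes each core was present in 2. The 4 windows printed all hold a core, whereas that of RCI2B, which is not printed, held neither. Among 27443 windows of the same length at protein-coding genes, 26.7% held the first core and 15% the second. These matches describe letters in the windows and show nothing about which factor bound there.

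Cell wall genes changed in both directions, with abundant enzymes of the growing wall among those that fell. XTH9, a xyloglucan endotransglucosylase that cuts and rejoins wall xyloglucan, went from 260 FPKM on the ground to 122 FPKM in flight (−1.09 ± 0.21, q = 0.00259). EXPA15, an expansin that loosens walls, went from 303 to 206 FPKM (−0.56 ± 0.18, q = 0.00259). Outside the list, the expansins EXPA6 (−0.57 ± 0.21) and EXPB3 (−0.34 ± 0.22) and the xyloglucan enzyme XTH32 (−0.47 ± 0.22) fell and the expansin-like EXLB1 rose (0.85 ± 0.37); these 4 were added after their values had been seen. Within the list of 42 primary wall genes XTH9 and EXPA15 fell, and 2 callose synthases rose: GSL10 from 3.89 to 6.26 FPKM (0.69 ± 0.29, q = 0.00259) and GSL12 from 8.01 to 11.99 FPKM (0.58 ± 0.37, q = 0.0474). Of 32 root hair genes 3 were called, all higher in flight, and all 3 encode proline-rich or extensin structural proteins of the hair wall: PRP1 from 12.9 to 27.5 FPKM (1.09 ± 0.35), EXT12 from 62.4 to 111 FPKM (0.83 ± 0.38) and EXT10 from 46.6 to 61.1 FPKM (0.39 ± 0.21). Arabinogalactan proteins, heavily glycosylated proteins of the wall and plasma membrane, split evenly, with 3 of 57 higher and 3 lower. AGP21 was among the most abundant called genes and went from 2590 to 1703 FPKM (−0.60 ± 0.24, q = 0.00259), whereas FLA6 went from 13.9 to 27.6 FPKM (0.99 ± 0.40, q = 0.00259).

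Class III peroxidases use hydrogen peroxide to crosslink or loosen wall polymers. Of 82 annotated genes 2 rose and 9 fell, with a median log2 fold change of −0.45 among the called members. The largest fall was AT2G18150, from 54.3 to 19.1 FPKM (−1.51 ± 0.42), followed by AT3G21770, from 271 to 151 FPKM (−0.84 ± 0.19). The 2 that rose were the least abundant on the ground: AT1G49570 went from 1.12 to 6.13 FPKM (2.45 ± 0.83) and AT5G19890 from 6.07 to 16.5 FPKM (1.44 ± 0.47), each of these 4 with q = 0.00259. The other 7 that fell had log2 fold changes of −0.63 to −0.37.

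Barrier and vascular genes that were called all fell. Of 31 genes of the Casparian strip and suberin layers 3 were called. DIR9, a dirigent protein (the family that steers lignin and lignan coupling), went from 41.1 to 19.4 FPKM (−1.09 ± 0.31), the copper protein UCC1 from 62.3 to 33.9 FPKM (−0.88 ± 0.26), and the lipase-like GELP38 from 91.4 to 52.1 FPKM (−0.81 ± 0.32), all with q = 0.00259. The remaining 28 genes of that list were not called. Of 34 xylem and secondary wall genes 3 were called and fell by less: the laccase IRX12 from 13.9 to 9.69 FPKM (−0.52 ± 0.32, q = 0.0316), ACL5, which makes the xylem regulator thermospermine, from 136 to 97.7 FPKM (−0.48 ± 0.24, q = 0.0096), and the lignin pathway enzyme HCT from 152 to 111 FPKM (−0.45 ± 0.28, q = 0.0248). Lipid transfer proteins, small secreted carriers of wax, cutin and suberin lipids, were lower in 7 and higher in 3 of 133 annotated genes. AT3G22600 went from 562 to 337 FPKM (−0.74 ± 0.18, q = 0.00259), and EARLI1 from 17.7 to 44.8 FPKM (1.34 ± 0.54, q = 0.00259).

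Called hormone genes were mixed in direction. They made up 17.4% of the cytokinin list, 16.2% of auxin, 5.56% of ethylene and 3.70% of jasmonate, against 5.11% of all tested loci. In the cytokinin list 4 of 23 genes were called, all type-A response regulators, which are induced by cytokinin and dampen its signal. RR17 had 1.66 FPKM on the ground and 7.58 FPKM in flight (2.19 ± 1.01, q = 0.00797), RR3 (AT2G41310) went from 11.02 to 28.0 FPKM (1.35 ± 0.50, q = 0.00259) and ARR3 from 11.03 to 21.8 FPKM (0.98 ± 0.35, q = 0.00259). The fourth, ARR9, was the most abundant of them and fell from 55.8 to 43.4 FPKM (−0.36 ± 0.23, q = 0.0406).

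In the auxin list 4 of 37 genes rose and 2 fell. Those that rose included the efflux carrier PIN7 (8.56 to 12.4 FPKM, 0.53 ± 0.31, q = 0.0265), the transporter ABCB19 (17.41 to 26.9 FPKM, 0.63 ± 0.39, q = 0.0322) and the response factor ARF19 (2.17 to 3.51 FPKM, 0.70 ± 0.44, q = 0.0316). The 2 that fell were the influx carrier LAX3, from 96.7 to 68.6 FPKM (−0.49 ± 0.20, q = 0.00259), and the transcription factor LBD29, from 7.62 to 3.25 FPKM (−1.23 ± 0.78, q = 0.0474). AXR4, which brings the influx carrier AUX1 to the plasma membrane, was among the 12 largest rises, from 15.2 to 52.7 FPKM (1.79 ± 0.96, q = 0.043). Ethylene held 1 called gene of 18, EBF2, an F-box protein that degrades the ethylene transcription factor EIN3, from 12.2 to 18.4 FPKM (0.59 ± 0.36, q = 0.0237). Jasmonate held 1 of 27, the storage protein VSP1, which fell from 142 to 68.2 FPKM (−1.06 ± 0.55, q = 0.0186).

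**Figure D2:**
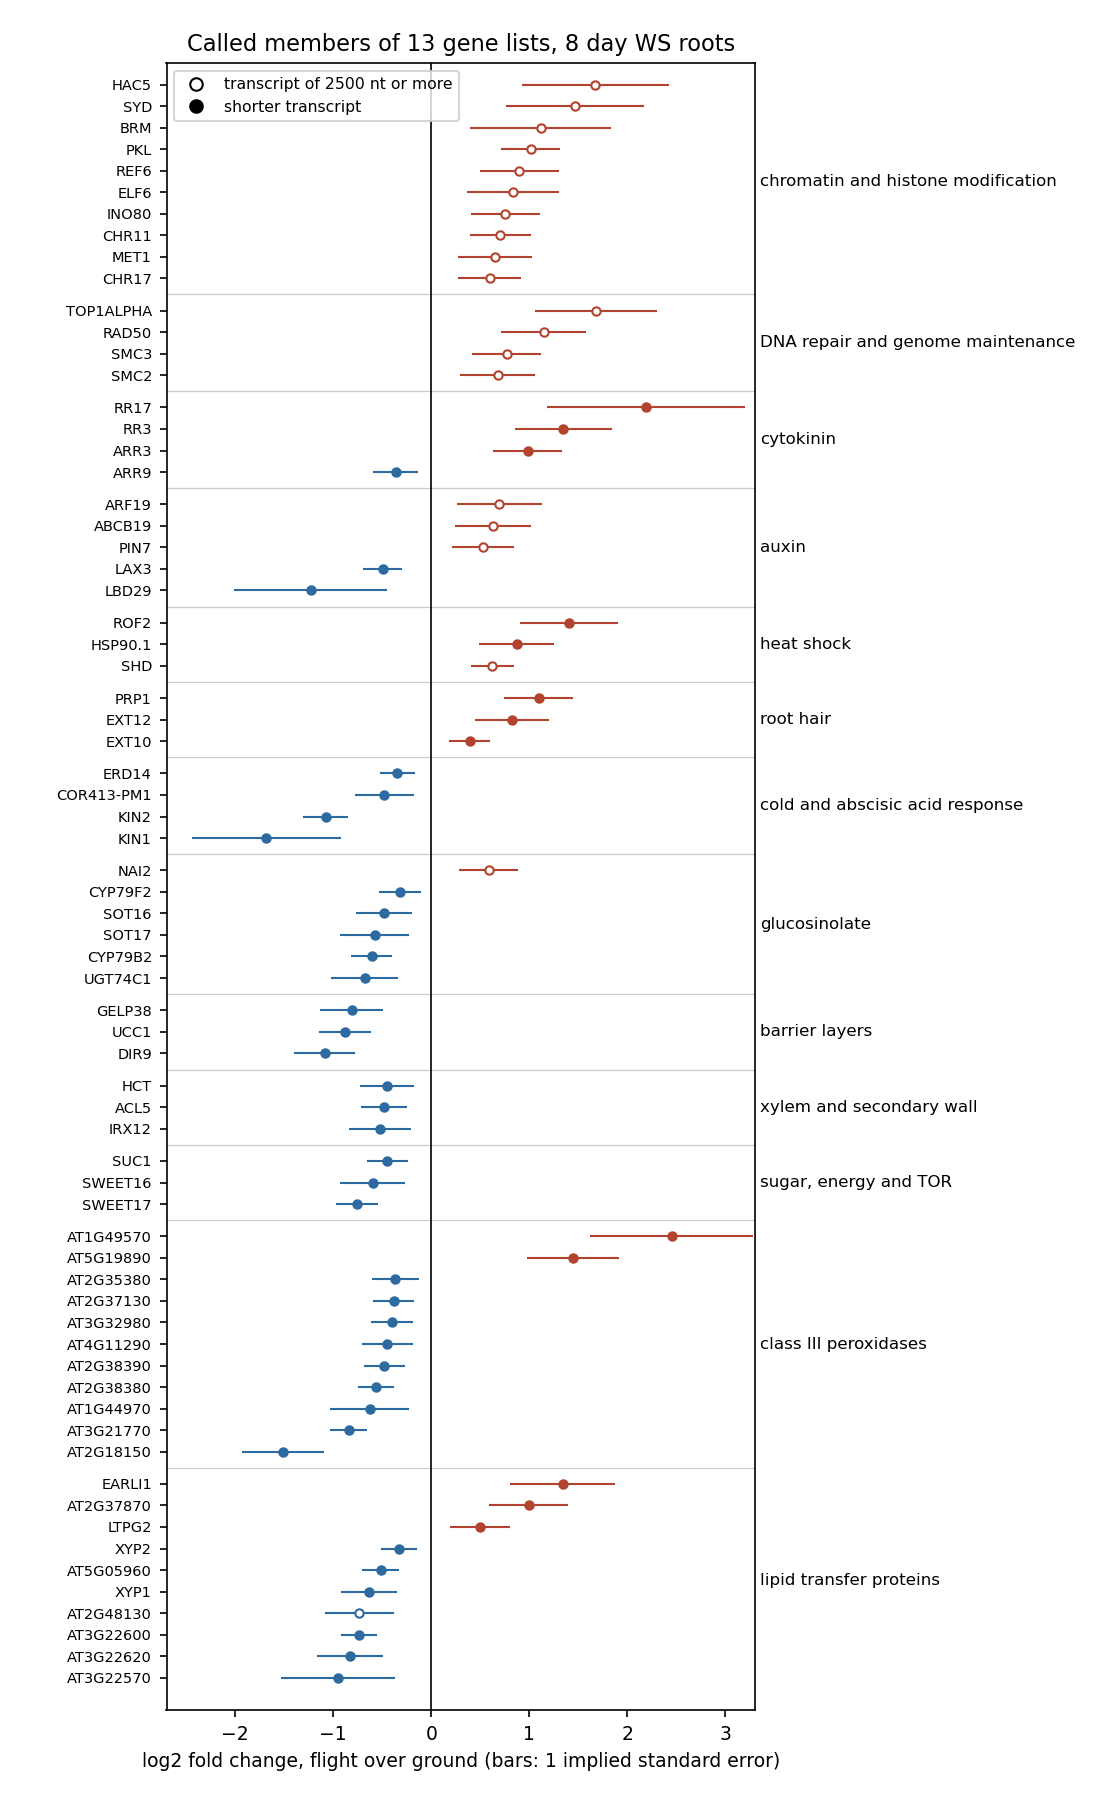
Log2 fold change, flight over ground, of called members of 13 gene lists (x axis), from the authors' deposited table, with bars of 1 standard error derived from the deposited statistic; red is higher in flight, blue lower, and open points have a transcript of 2500 nt or more. All called members of the chromatin list are open red points between 0.60 and 1.67, while the called cold, barrier, xylem and sugar genes lie below 0.

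Stress and nutrient lists were mostly not called. Of 18 low oxygen genes 2 were called and both rose. FTM1, a stearoyl-ACP desaturase family gene induced by hypoxia, had 4.19 FPKM on the ground and 22.5 FPKM in flight (2.43 ± 0.46, q = 0.00259), and LBD41, a hypoxia-induced transcription factor, went from 12.05 to 17.64 FPKM (0.55 ± 0.34, q = 0.0436). The remaining 16, which hold the fermentation genes, were not called. Of 27 heat shock genes 3 rose: the co-chaperone ROF2 from 2.55 to 6.76 FPKM (1.40 ± 0.50), the inducible cytosolic HSP90.1 from 5.17 to 9.46 FPKM (0.87 ± 0.38) and the endoplasmic reticulum chaperone SHD from 57.1 to 88.0 FPKM (0.62 ± 0.22), all with q = 0.00259. Touch and calcium genes were called in 3 of 30, the transcription factors WRKY18 (4.58 to 9.06 FPKM, 0.98 ± 0.51, q = 0.0147) and STZ (4.91 to 9.64 FPKM, 0.97 ± 0.58, q = 0.048) rising and the calmodulin CAM2 (620 to 501 FPKM, −0.31 ± 0.18, q = 0.0265) falling. In the oxidative stress list of 33 genes, thioredoxin TRX5 (739 to 443 FPKM, −0.74 ± 0.18), catalase CAT3 (81.5 to 61.2 FPKM, −0.41 ± 0.23) and glutathione transferase GSTU19 (1479 to 1144 FPKM, −0.37 ± 0.24) fell, and UGT74E2, which glycosylates indole-butyric acid, rose from 2.61 to 5.15 FPKM (0.98 ± 0.60).

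The called genes of the sugar and nitrogen lists were few and lower, at 9.4% and 7.1% of their lists against 5.11% of all tested loci. All of them have transcripts of 800 to under 2500 nt, a class in which 351 of 535 called genes fell. The vacuolar sugar carriers SWEET17 (125 to 73.9 FPKM, −0.76 ± 0.21, q = 0.00259) and SWEET16 (28.4 to 18.8 FPKM, −0.60 ± 0.33, q = 0.011) and the sucrose importer SUC1 (59.97 to 43.9 FPKM, −0.45 ± 0.21, q = 0.00259) were the 3 called of 32 sugar and energy genes. The ammonium importer AMT1;3 (21.5 to 12.2 FPKM, −0.82 ± 0.42, q = 0.00463) and WR3, the partner protein of the high-affinity nitrate carrier (51.2 to 34.5 FPKM, −0.57 ± 0.31, q = 0.0194), were the 2 called of 28 nitrogen genes. The called phosphate genes were higher: SPX1, a phosphate sensor induced by starvation, rose from 27.1 to 49.4 FPKM (0.86 ± 0.27, q = 0.00259), and PHO1;H1, a phosphate exporter, from 5.44 to 8.15 FPKM (0.58 ± 0.35, q = 0.0322), with 23 of 25 not called. The only iron gene of 32 was BTS, a ubiquitin ligase that holds iron uptake down, from 2.05 to 4.37 FPKM (1.09 ± 0.40, q = 0.00259). Among 22 aquaporins, only PIP1A was called, lower at 379 against 494 FPKM (−0.38 ± 0.18, q = 0.00259). Glucosinolate synthesis, which makes the sulfur-rich defence compounds of crucifers, was lower in 5 of 34 genes. They were UGT74C1 (−0.68 ± 0.34), CYP79B2 (−0.61 ± 0.21), SOT17 (−0.57 ± 0.35), SOT16 (−0.48 ± 0.28) and CYP79F2 (−0.32 ± 0.21), and NAI2, a protein of the endoplasmic reticulum bodies that store the activating enzyme, was higher (0.59 ± 0.30).

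Of 62 chromatin and histone modification genes 10 were called, all higher, with a median log2 fold change of 0.87. They included the ATP-driven remodellers SYD (1.03 to 2.85 FPKM, 1.47 ± 0.70, q = 0.0096), BRM (2.01 to 4.36 FPKM, 1.11 ± 0.72, q = 0.048), PKL (4.38 to 8.85 FPKM, 1.01 ± 0.30, q = 0.00259) and INO80 (2.70 to 4.57 FPKM, 0.76 ± 0.35, q = 0.00259). Among histone modifiers the acetyltransferase HAC5 went from 0.746 to 2.38 FPKM (1.67 ± 0.75, q = 0.0292), and the histone H3 lysine demethylases REF6 (2.06 to 3.85 FPKM, 0.90 ± 0.41, q = 0.00463) and ELF6 (1.95 to 3.48 FPKM, 0.84 ± 0.47, q = 0.0237) rose as well. MET1, which maintains CG methylation of DNA, went from 2.52 to 3.95 FPKM (0.65 ± 0.38, q = 0.0248). Of 48 annotated histone genes 3 were called, all lower, at log2 fold changes of −0.49 to −0.39. That share is near that of all tested loci, although the list can hold genes that were not tested. Histone genes are near-identical copies whose reads can be shared.

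DNA repair and genome maintenance was called in 4 of 41 genes, all higher: TOP1ALPHA, a DNA topoisomerase (10.8 to 34.6 FPKM, 1.68 ± 0.62), the break repair protein RAD50 (1.71 to 3.79 FPKM, 1.15 ± 0.43), SMC3 as annotated (3.34 to 5.68 FPKM, 0.77 ± 0.35) and SMC2 (6.26 to 10.0 FPKM, 0.68 ± 0.38). RNA processing was called in 4 of 39, all higher, among them the core spliceosome proteins SUS2 (at the more abundant of its 2 overlapping loci, 12.03 to 24.4 FPKM, 1.02 ± 0.47) and emb1507 (5.52 to 10.9 FPKM, 0.98 ± 0.48). Membrane traffic and cytoskeleton was called in 3 of 41, all higher: the microtubule protein MOR1 (3.34 to 5.63 FPKM, 0.75 ± 0.30) and the ARF exchange factors ATMIN7 (5.32 to 8.54 FPKM, 0.68 ± 0.28) and GN (5.22 to 7.15 FPKM, 0.45 ± 0.29). Of 117 kinesin and myosin-like genes 4 rose, with POK1, a kinesin that guides the division plane, at 3.02 against 1.42 FPKM (1.08 ± 0.39, q = 0.00259).

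The called genes of these lists are long, and length moved with direction across the whole table. All 10 called chromatin genes have a transcript of 2500 nt or more, and every called gene of 4000 nt or more was higher in flight, 71 of 71, with a median log2 fold change of 0.78. Between 2500 and 4000 nt 102 of 116 called genes were higher (median 0.64), between 800 and 2500 nt 184 of 535 (34.4%, median −0.40) and under 800 nt 14 of 82 (median −0.47). The median transcript was 2335 nt with 7 exons among genes that rose and 1279 nt with 3 exons among genes that fell, against 1514 nt and 3 exons over 27562 annotated protein-coding genes. The 5 longest named genes, SYD, BRM, SUS2, ACC1 and emb1507, all rose, ACC1 (the cytosolic acetyl-CoA carboxylase) from 1.77 to 2.97 FPKM (0.75 ± 0.47, q = 0.0331). In the authors' deposited tables for the other flight comparisons, the long class (2500 nt or more) split into 35 genes up and 31 down in 8 day Col-0, 3 and 1 in 4 day WS, and 50 and 107 in 4 day Col-0. Between 800 and 2500 nt the counts up and down were 192 and 426, 49 and 43, and 417 and 627 in the same order. Under 800 nt they were 15 and 72, 10 and 8, and 101 and 22. In 8 day Col-0, too, most called genes of the 2 shorter classes fell. Full-length cDNA was made from 10 ng of RNA and amplified by 8 cycles of PCR, and transcript integrity per sample is not known here. Rises in other lists were also of genes of 2500 nt or more: PIN7, ABCB19, ARF19, EBF2, PHO1;H1, BTS, GI and the callose synthases GSL10 and GSL12. The part of transcript length in the rise of these genes and of the chromatin, repair, RNA and traffic genes was not tested. Among genes of 800 to under 2500 nt alone, 25 of the 73 list members that rose would be counted.

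**Figure D3:**
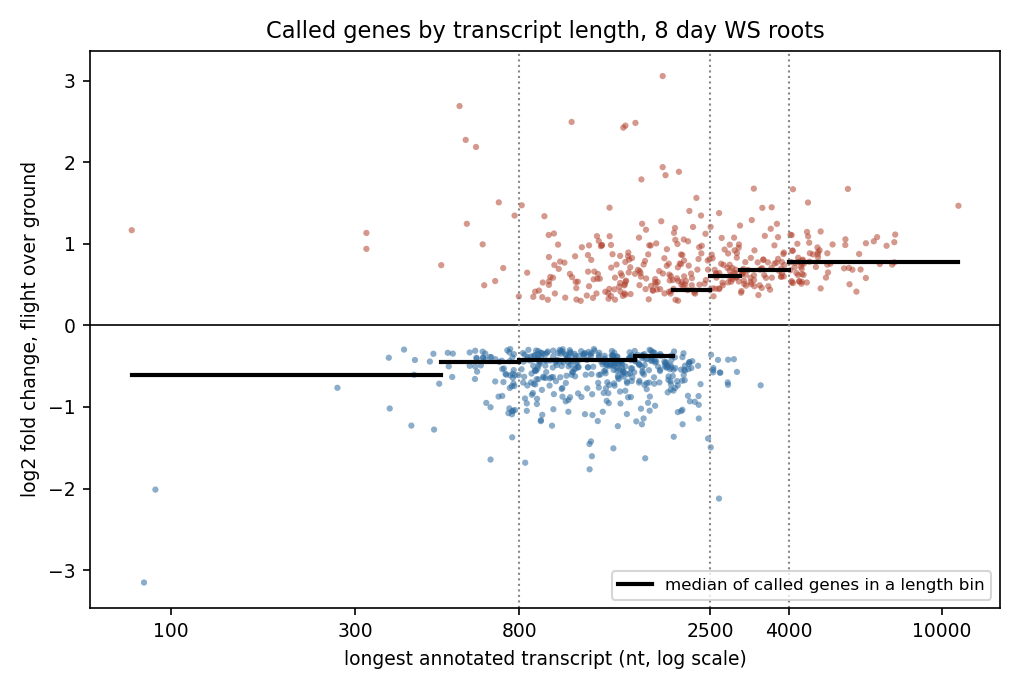
Log2 fold change, flight over ground, of called genes (y axis) against the length of the longest annotated transcript (x axis, nt, log scale), from the authors' deposited table; points are genes and black bars are medians in length bins. The medians pass from below 0 for short transcripts to above 0 for long ones, crossing 0 at about 2000 nt, and all 71 genes of 4000 nt or more lie above 0.

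At the other end of the abundance range, the most highly expressed called genes encode very small proteins and fell slightly. AT3G11120, ribosomal protein L41, went from 4419 to 3359 FPKM (−0.40 ± 0.19, q = 0.00259), AT3G18740, annotated as an L30-type ribosomal protein, had −0.41 ± 0.22 (q = 0.00463) and AT3G59540, ribosomal protein L38, −0.33 ± 0.21 (q = 0.0379). AT4G21105, annotated as a cytochrome c oxidase protein, had 3025 FPKM on the ground and 2118 FPKM in flight (−0.51 ± 0.20, q = 0.00259). Of 315 genes annotated in words as ribosomal proteins 7 were called, 4 lower and 3 higher; AT3G59540 is worded otherwise in the annotation and is not among them. The smallest changes that were called at 5 FPKM or more, in MTACP-1, AT5G03345 and CYS1, had log2 fold changes of −0.29.

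Other families had small counts; they were taken by words of the annotated product, so members annotated otherwise are not counted. Cytochromes P450 were lower in 5 and higher in 1 of 248 genes, with CYP93D1 lowest (4.05 to 1.31 FPKM, −1.63 ± 0.75, q = 0.0194). Small secreted peptides were lower in 4 and higher in 2 of 196, and CLE5, a signalling peptide gene with 2 overlapping loci, went from 118 to 56.7 FPKM at the more abundant of them (−1.05 ± 0.52, q = 0.00635). Genes annotated by the words RING/U-box, F-box or ubiquitin ligase were lower in 6 of 1024 and higher in 0; BTS, a ubiquitin ligase that rose, is annotated as a zinc finger protein and is not among them. Receptor kinases (1 higher and 2 lower of 389), genes worded as ABC transporters (2 higher and 1 lower of 64, leaving out ABCB19, which rose, and ABCI20, which had −0.48 ± 0.20), helicases (6 higher and 1 lower of 128), flavonoid genes (1 higher and 1 lower of 18) and proteasome subunits (1 higher of 45) had few called members. Of 24 clock genes GI rose from 2.08 to 3.43 FPKM (0.72 ± 0.42, q = 0.0292). Of 39 root tip and cell cycle genes, CYCD6;1, a cyclin of formative divisions in the ground tissue, fell from 20.7 to 9.17 FPKM (−1.18 ± 0.62, q = 0.0194). Triterpene genes (0 of 13) and the ribosomal proteins of mitochondria and plastids (0 of 15) held no called gene.

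Among the 12 largest rises and 12 largest falls were genes not yet described. Upward, AT5G66840, a SAP domain protein, went from 0.773 to 6.44 FPKM (3.06 ± 0.85, q = 0.00259), and the defensin-like AT1G34047 from 8.67 to 42.0 FPKM (2.28 ± 0.56, q = 0.00259). HMGS, which makes HMG-CoA for the mevalonate pathway, went from 7.47 to 26.8 FPKM (1.84 ± 1.08, q = 0.043), an error close to the size of the change. Downward, the receptor-like kinase AT4G22730 went from 10.08 to 2.31 FPKM (−2.12 ± 0.75), the E6-like protein AT2G33850 from 152 to 44.6 FPKM (−1.76 ± 0.70) and the MIZU-KUSSEI-like AT3G25640 from 38.5 to 14.4 FPKM (−1.42 ± 0.38), each with q = 0.00259. MIZU-KUSSEI1, for which that family is named, is required for root bending towards water. CEP3, a cysteine endopeptidase of a family linked to cell death in root tissues, went from 28.8 to 12.2 FPKM (−1.24 ± 0.33, q = 0.00259). AT5G44400, a berberine bridge-like oxidase, went from 32.8 to 12.8 FPKM (−1.36 ± 0.28, q = 0.00259).

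All 11 loci of the mitochondrial genome that were called rose, with log2 fold changes of 1.05 to 3.49 and a median of 1.64. No gene name is paired with them in the files, so they are numbered here by size of change. Locus 5 went from 159 to 510 FPKM (1.69 ± 0.39, q = 0.00259), locus 4 from 37.7 to 149 FPKM (1.98 ± 0.48, q = 0.00259) and locus 9 from 10.6 to 23.7 FPKM (1.16 ± 0.22, q = 0.00259). The largest fold change, of locus 1, rests on a ground level of 0.224 FPKM (3.49 ± 1.36, q = 0.0339). No mitochondrial locus is listed in the authors' deposited tables of the other 3 flight comparisons, and no chloroplast locus was called. Of 92 nuclear genes annotated in words as respiratory chain subunits only SDH4 was called, lower at 334 against 421 FPKM (−0.34 ± 0.19, q = 0.0096). That match leaves out the complex I subunit CI51, which rose from 87.7 to 128 FPKM (0.55 ± 0.36, q = 0.0451), and AT4G21105, which fell. Plant mitochondrial transcripts mostly lack long poly(A) tails, and the part of cDNA priming in these levels was not tested.

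The same flight comparison in 8 day Col-0 roots shares no library with this one. There the authors' deposited table lists 812 of 20035 loci (4.05%). Of the genes with a locus of their own, 134 were called in both, 16.6% of the 8 day WS genes and 17.38% of the 771 Col-0 genes. Both accessions changed in the same direction for 123 of the 134, with 91 lower and 32 higher, and in opposite directions for 11. Shared falls included KIN1 (−1.68 ± 0.76 in WS, −1.94 ± 0.22 in Col-0), KIN2 (−1.08 ± 0.23 and −0.90 ± 0.16) and the peroxidase AT2G18150 (−1.51 ± 0.42 and −1.16 ± 0.19). Shared rises included RR17 (2.19 ± 1.01 and 2.57 ± 1.05), PRP1 (1.09 ± 0.35 and 1.44 ± 0.45) and HSP90.1 (0.87 ± 0.38 and 0.97 ± 0.30). SUC1, the cupredoxin AT5G07475 and IRX12 had the smallest differences between accessions in units of their error, with −0.45 ± 0.21, −0.59 ± 0.26 and −0.52 ± 0.32 in WS against −0.45 ± 0.17, −0.59 ± 0.20 and −0.53 ± 0.24 in Col-0. The RCI2 genes RCI2A, RCI2B and AT4G30660 and the 11 mitochondrial loci are not listed for Col-0, and a difference between accessions could not be tested for them.

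The difference of the 2 log2 fold changes was tested for all 134 shared genes by its ratio to the combined error, with Benjamini-Hochberg adjustment, and 4 of 134 (2.99%) passed an adjusted p of 0.05 in a two-sided test. These p-values treat the errors in the authors' deposited tables as fixed, which makes them too small for groups of 4 replicates, and with 1 level per group an exact test over samples could not be made. Only genes called in both comparisons entered, so both changes had been selected for size, and the p-values do not allow for it. A gene of opposite directions enters with changes already far apart, and all 4 that passed were of this kind. In the authors' deposited tables FTM1 rose in WS and fell in Col-0, where it went from 23.9 to 11.9 FPKM (−1.001 ± 0.33), a difference of 3.43 ± 0.56 (adjusted p = 1.4e-07). AT1G12805, annotated as a nucleotide binding protein, went in the authors' deposited tables from 4.49 to 29.0 FPKM in WS and from 47.7 to 13.3 FPKM in Col-0, a difference of 4.53 ± 0.85 (adjusted p = 5.88e-06). For both genes the ground level was higher in Col-0 and the flight level higher in WS, with levels set across separately normalised tables. The precursor locus MIR158b, 85 nt long, went from 52.9 to 5.95 FPKM in WS and from 1.53 to 8.03 FPKM in Col-0, a difference between the authors' deposited values of −5.54 ± 1.59 (adjusted p = 0.0212). A library for long RNA measures so short a locus poorly, and its mature miRNA was not measured. AT2G43535, a knottin-type small protein, went from 859 to 596 FPKM in WS and from 618 to 763 FPKM in Col-0, a difference between the authors' deposited values of −0.83 ± 0.26 (adjusted p = 0.0415). With errors 1.5 times as large, only FTM1 and AT1G12805 passed.

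The other 7 genes of opposite direction did not pass. LBD41, the second low oxygen gene, had 0.55 ± 0.34 in WS and −0.63 ± 0.24 in Col-0, a difference between the authors' deposited values of 1.18 ± 0.42 (adjusted p = 0.0837). AT3G03270, an adenine nucleotide hydrolase-like protein, had 0.39 ± 0.21 and −0.76 ± 0.35, a difference between the authors' deposited values of 1.15 ± 0.40 (adjusted p = 0.0814). In the authors' deposited tables AT2G14247 had 2.496 ± 1.24 and −1.22 ± 0.60 (adjusted p = 0.0957), AT5G21020 0.43 ± 0.18 and −0.27 ± 0.15, and AT2G36950 0.45 ± 0.26 and −0.31 ± 0.19. AT5G22580 and AT3G45070 were lower in WS (−0.43 ± 0.27 and −0.32 ± 0.20) and higher in Col-0 (0.59 ± 0.22 and 0.39 ± 0.17).

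**Figure D4:**
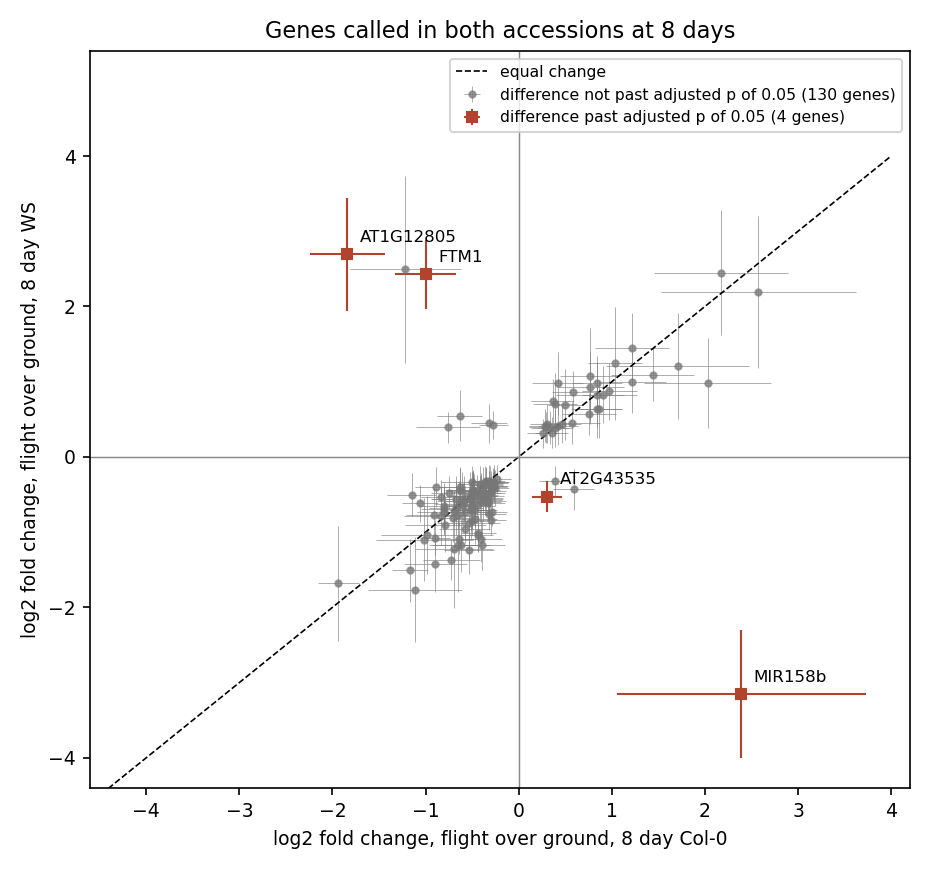
Log2 fold change, flight over ground, in 8 day Col-0 (x axis) against 8 day WS (y axis) for the 134 genes called in both of the authors' deposited tables, with bars of 1 standard error and a dashed line of equal change. The 4 red squares are the genes whose difference passed an adjusted p of 0.05; 123 of the 134 points share a sign.

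In 4 day WS roots the authors' deposited table lists 128 of 17899 loci (0.715%) for flight against ground, from libraries not used at 8 days. Of 114 genes there, 34 were also called at 8 days, 29.8% of the 4 day genes and 4.203% of the 8 day genes, and 30 of them changed in the same direction. DIR9 (−1.09 ± 0.31 at 8 days, −1.02 ± 0.49 at 4 days), UCC1 (−0.88 ± 0.26 and −1.0035 ± 0.40) and HSP90.1 (0.87 ± 0.38 and 0.89 ± 0.42) had similar values at both ages. The difference between ages passed an adjusted p of 0.05 for 4 of 34 (11.8%), the 4 genes of opposite direction. The 34 genes were likewise selected by a call at both ages, and the p-values do not allow for it. In the authors' deposited tables the defensin-like AT5G33355 had 1.25 ± 0.39 at 8 days and −1.62 ± 0.44 at 4 days, a difference of 2.86 ± 0.59 (adjusted p = 3.78e-05), its levels being 59.9 and 142 FPKM on the ground and in flight at 8 days and 767 and 250 FPKM at 4 days. The authors' deposited values for MIR158b differed by −6.81 ± 1.68 (adjusted p = 0.000831). The authors' deposited values differed for AT4G14060, of the polyketide cyclase family, by −2.13 ± 0.65 and for the uncharacterised AT1G65500 by −1.67 ± 0.52 (each adjusted p = 0.0115). With errors 1.5 times as large, AT5G33355 alone passed. In 4 day Col-0 roots 169 of the 809 genes (20.9%) were also called, 146 of them in the same direction. DIR9, SWEET17, the lipid transfer protein AT3G22600, AT4G29905 and the acyltransferase AT2G39980 are the 5 genes listed in all 4 flight tables, and 555 of the 809 genes (68.6%) are listed in no other flight table. Few tested loci are listed elsewhere (4.05% in 8 day Col-0, 0.715% in 4 day WS), so this absence does not show a response particular to 8 day WS roots.

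The ages can also be set side by side from the authors' deposited tables of 8 against 4 days in flight and on the ground. Those tables share the 8 day libraries with the flight comparison, so only values are given. The genes shown are all those among the 12 largest rises and falls, the 8 most abundant and the 5 longest that both age tables list at the same locus with levels above 0; how many other genes follow the same pattern was not counted. On the ground the peroxidase AT2G18150 had 9.09 FPKM at 4 days and 53.0 FPKM at 8 days, and in flight 2.96 and 17.42 FPKM. AT5G44400 had 3.17 and 32.1 FPKM on the ground and 0.532 and 11.6 FPKM in flight. CEP3 had 7.23 and 28.1 FPKM on the ground and 4.61 and 11.2 FPKM in flight. In these 3 genes the 8 day flight level lay between the 4 day and the 8 day ground levels. The same was true from the other side of genes that fall with age: AT1G34047 had 149 and 8.47 FPKM on the ground and 90.2 and 38.3 FPKM in flight, and the homeodomain-like AT5G58900 had 85.7 and 10.0 FPKM on the ground and 89.8 and 36.0 FPKM in flight. All these genes were chosen for a large difference between the same 8 day groups, so the position of the 8 day flight level supports nothing by itself.

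The long genes emb1507 and ACC1 and the mitochondrial loci had lower levels at 8 days than at 4 days in both conditions where listed. The splicing helicase emb1507 had 14.3 and 5.39 FPKM on the ground and 18.1 and 9.92 FPKM in flight, and ACC1 3.72 and 1.73 FPKM on the ground and 5.12 and 2.71 FPKM in flight. All 11 mitochondrial loci were listed on the ground, with log2 fold changes of −3.59 to −1.33 from 4 to 8 days, and 4 of them were listed in flight, with −0.85 to −0.60. Mitochondrial locus 9 had 27.3 and 10.4 FPKM on the ground and 34.2 and 21.6 FPKM in flight. FTM1 behaved otherwise, with 1.21 and 4.09 FPKM on the ground and 1.17 and 20.6 FPKM in flight. Fewer roots were pooled per replicate at 8 days than at 4 days, and the part of pooling in the age values was not tested.

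**Figure D5:**
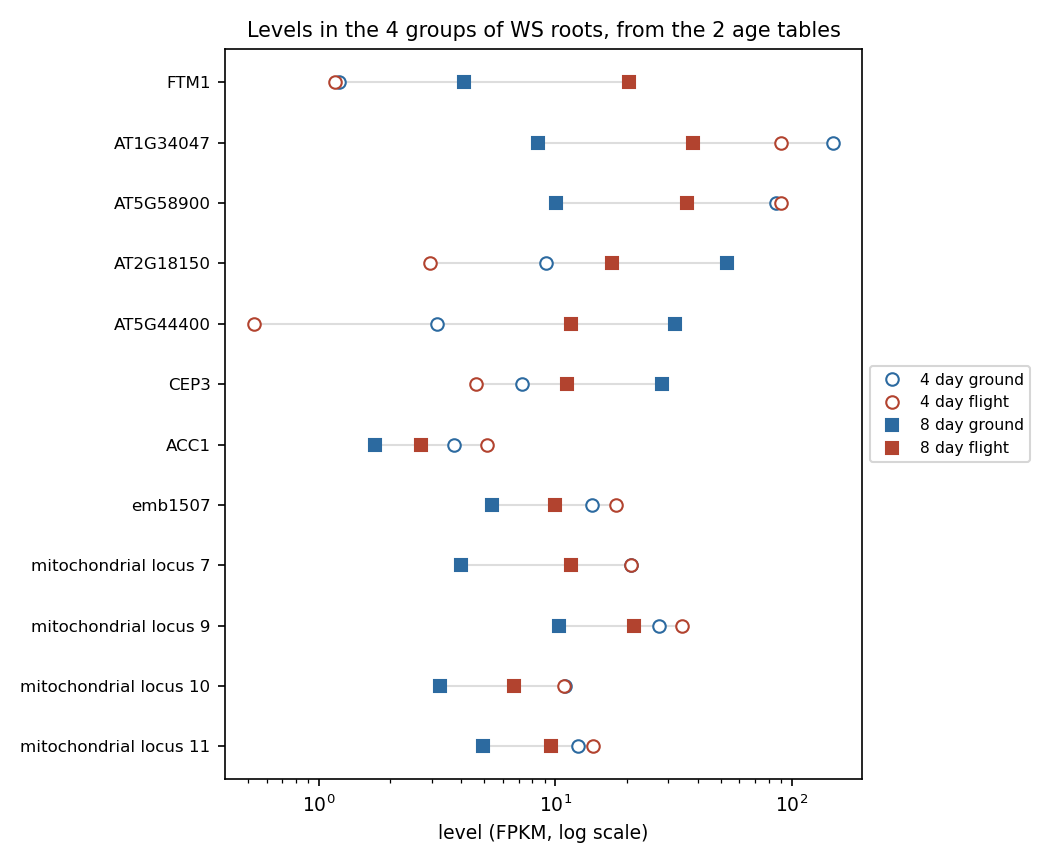
Levels in the 4 groups of WS roots (x axis, FPKM, log scale) for 8 genes and 4 mitochondrial loci (y axis) that both of the authors' deposited age tables list; circles are 4 days, squares 8 days, blue ground and red flight, and no error is drawn because 1 level per group was deposited. Apart from FTM1, which is highest in 8 day flight roots at 20.6 FPKM, the 8 day flight square lies between the 8 day ground square and the 4 day ground circle. The genes other than emb1507 and ACC1 were chosen for a large difference between the 8 day groups, so this position supports nothing by itself.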

How the data were processed

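The libraries were total RNA from dissected roots, made with SMART-Seq v4 cDNA and Nextera tagmentation from 10 ng of RNA with 8 PCR cycles, per the labels' protocols, a method that does not keep strand. Per the submitters' processing notes, the tools were Cuffdiff, Cufflinks, STAR 2.5.1b, Trimmomatic 0.36, Picard and FastQC 0.11.2, and the build was TAIR10; their settings are not stated. The authors deposited 1 FPKM value per group, a log2 fold change, a test statistic (a score by which Cuffdiff relates the log2 fold change to its error), a p-value and a q-value per locus, pooled over 4 replicates, for loci with q of 0.05 or less only. Depth is unknown, so no interval or detection limit from counts can be given.

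From these values a standard error was derived for each log2 fold change by dividing the absolute change by the absolute statistic, and p, rank and q together gave how many loci had been tested. Differences between comparisons that share no library were tested as the difference over the root of the summed squared errors (two-sided, normal reference), with Benjamini-Hochberg adjustment over all genes listed in both tables. This normal reference is for model errors from Cuffdiff across all genes. Loci were matched between WS tables by locus and between accessions by gene. Where a gene had 2 loci (5 genes) the more abundant one was used, and 1 gene whose loci had opposite directions (PLDALPHA1) was left out of direction counts. Symbols, transcript lengths and promoter windows (250 bases before to 50 from the gene start) came from the RefSeq annotation of TAIR10.1. The WS loci were not placed on that build here. The tests were tried on simulated data with known answers, in which no gene was selected by its change. Python 3.11.15, pandas 2.3.3, numpy 2.4.6 and scipy 1.17.1 were used.

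The comparison and 45 gene lists were chosen with earlier results of these data known, and 13 further lists and families (RCI2 proteins and those of the closing section) after the values had been seen. Genes named are the 12 largest rises and 12 largest falls (5 FPKM or more in the higher group, transcript of 200 nt or more), the called members of lists (up to 5, or all of 6 or fewer), the 8 most abundant, the 5 longest, the 3 smallest changes, all loci of organelle genomes, all genes of opposite direction in 8 day Col-0, and the 3 smallest and largest differences from it. Where lists held more called genes, the text names some. A called member of the auxin list is counted but not reported by name here. Alternatives were a q of 0.02 or less, a log2 fold change of 1 or more, 5 FPKM or more, loci of 1 gene, transcripts of 800 to under 2500 nt, a pseudocount of 1, errors 1.5 times as large, and levels from the age tables.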

Additional observations from a re-analysis of the deposited data

Results flagged for a closer look

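In 7 genes or loci, 1 of them in both comparisons, the difference in flight response between groups passed the threshold of the test described above. That test was made on the log2 scale, with errors from the deposited statistics and Benjamini-Hochberg adjustment. Against 8 day Col-0 roots, the WS response in the authors' deposited tables was higher by 3.43 ± 0.56 in FTM1 (adjusted p = 1.4e-07) and by 4.53 ± 0.85 in AT1G12805 (adjusted p = 5.88e-06). The authors' deposited values differed by −5.54 ± 1.59 in MIR158b (adjusted p = 0.0212) and by −0.83 ± 0.26 in AT2G43535 (adjusted p = 0.0415). Against 4 day WS roots, the 8 day response in the authors' deposited tables differed by 2.86 ± 0.59 in AT5G33355 (adjusted p = 3.78e-05), −6.81 ± 1.68 in MIR158b (adjusted p = 0.000831), −2.13 ± 0.65 in AT4G14060 and −1.67 ± 0.52 in AT1G65500 (both adjusted p = 0.0115). In each of these cases the authors' deposited tables give opposite signs for the 2 groups compared. Only genes called in both tables entered, so genes of opposite signs entered with changes already far apart. The p-values do not allow for this selection and are too small for groups of 4 replicates, so they do not establish a difference. With errors 1.5 times as large, only FTM1, AT1G12805 and AT5G33355 passed. The MIR158b locus is 85 nt long and poorly measured by a library for long RNA.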

How the results depend on the processing

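No paired analysis was possible because the authors' deposited tables carry no value per replicate, and leaving out replicates was not possible for the same reason. Counts of called loci followed the threshold: 410 higher and 478 lower loci became 265 and 317 at a q of 0.02 or less, and 88 and 55 at a log2 fold change of 1 or more. Restricting the table to nuclear loci of 1 gene with transcripts of 800 to under 2500 nt left 184 higher (34.4%) against 351 lower, fewer of both because fewer loci remain. Over the lists, 73 called members were higher and 77 lower; 25 of the higher ones have transcripts of 800 to under 2500 nt, and at a log2 fold change of 1 or more 23 higher and 12 lower remained. Genes called in both accessions at 8 days went from 134 to 81, and those of the same direction from 123 to 75, at a q of 0.02 or less in both tables. With errors 1.5 times as large, differences past an adjusted p of 0.05 went from 4 to 2 against 8 day Col-0 and from 4 to 1 against 4 day WS. The medians of all transcript length classes kept their sign with 5 FPKM or more in both groups and with a pseudocount of 1. Of 250 loci with a pseudocount of 1, 249 moved by less than 1 error and none changed sign. Levels from the age tables were set in for 43 genes, while 120 called genes are listed in both. All 43 moved by less than 1 error and kept their sign. Those levels come from the same 8 day libraries, and the shift was nearly the same for all (median 0.098, largest 0.099). The smallest called change was 0.289 in size, so such a shift could not change a sign, and this check shows little. The depth of the libraries is unknown, so what it limits cannot be given.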

Other observations

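Several further groups were picked out after their values had been seen, so their counts only describe the authors' deposited table and support nothing. Genes induced when sulfur is short were higher: LSU1 went from 5.77 FPKM on the ground to 16.4 FPKM in flight (1.51 ± 0.76, q = 0.0173), SDI1 from 3.55 to 7.02 FPKM (0.98 ± 0.61, q = 0.0474) and the root sulfate importer SULTR1;2 from 78.3 to 113 FPKM (0.53 ± 0.33, q = 0.0344). The ATP sulfurylases APS2 and APS4, the first step of sulfate assimilation, were lower (−0.46 ± 0.21 and −0.44 ± 0.29). In the sulfur list of 28 genes 4 were higher and 2 lower. Of 19 nuclear genes for mitochondrial chaperones, prohibitins, gene expression and other functions (the channel VDAC3 and the complex I subunit CI51 among them) 7 were called, all higher, including the chaperone HSP60 (40.1 to 53.1 FPKM, 0.40 ± 0.23), the prohibitin PHB4 (20.2 to 30.1 FPKM, 0.57 ± 0.29) and RPOTM, the phage-type RNA polymerase that transcribes the mitochondrial genome (9.73 to 16.4 FPKM, 0.76 ± 0.39). They moved in the same direction as the 11 mitochondrial loci. Genes linked to gravity response were called in 8 of 32: IAA7, an auxin response repressor, rose from 36.8 to 64.3 FPKM (0.81 ± 0.24, q = 0.00259), ARL1 from 15.7 to 24.95 FPKM (0.67 ± 0.38, q = 0.0186) and NPY2 from 4.21 to 8.04 FPKM (0.93 ± 0.46, q = 0.00635), whereas LZY3, which acts in root gravitropism, fell from 29.1 to 22.1 FPKM (−0.40 ± 0.26, q = 0.0467). Genes annotated in words as aminoacyl-tRNA synthetases were higher in 5 of 71 (7.04%, near the 5.11% of all tested loci). The 5 include AT5G12950, worded as a proline-tRNA ligase but with a domain of unknown function (DUF1680), so its place there is uncertain.

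Regulators of the cambium and of lateral roots were called in 7 of 17, all lower, among them WOX4, which maintains the cambium (36.4 to 23.7 FPKM, −0.62 ± 0.30, q = 0.00259), ANT (16.2 to 11.02 FPKM, −0.55 ± 0.30, q = 0.00463) and MYB93 (30.1 to 21.4 FPKM, −0.49 ± 0.28, q = 0.0194); the list holds LAX3, LBD29 and CYCD6;1 of the report. That list was made with the values known, and the auxin response factor ARF19, which rose (0.70 ± 0.44), is not in it. Thioredoxins and glutaredoxins, small redox proteins, were lower in 10 and higher in 1 of 119. MD-2-related lipid recognition proteins were lower in 4 of 8, AT5G23820 going from 760 to 399 FPKM (−0.93 ± 0.37, q = 0.00259), and the MLP and polyketide cyclase family in 4 of 44. Early nodulin-like and cupredoxin proteins were lower in 6 of 46, dirigent proteins in 4 of 26 and CASP-like proteins in 3 of 40. Genes annotated in words as extensin, proline-rich or hydroxyproline-rich proteins were lower in 9 and higher in 5 of 199, EXT4 going from 819 to 481 FPKM (−0.77 ± 0.19, q = 0.00259). Those lower include AT1G54540 and AT5G56050, annotated as late embryogenesis abundant hydroxyproline-rich glycoproteins, so not all need be wall proteins.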
